A study of Mus musculus with 18 samples.

Results

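The genes described here encode the proteins of the cytosolic ribosome, measured by RNA sequencing in cultured neurons of the mouse dorsal root ganglia (DRG), clusters of sensory nerve cells next to the spinal cord. They were chosen by symbol alone: Rpl or Rps followed by a number and optional lower-case letters, together with Rplp0, Rplp1, Rplp2 and Rpsa. The rule matched 80 of the 17198 genes in the deposited table, 48 of the large subunit and 32 of the small subunit. Cultures came from wild-type mice (WT) and from mice heterozygous for the Dynlrb1 tm1a allele (HET), and were collected at 12, 24 and 48 h. Dynlrb1 codes for a dynein light chain, part of the motor for transport from the axon back to the soma, and tm1a alleles are knockout-first insertions carried in all cells. Each of the 6 groups held 3 biological replicates, 18 cultures in all; the labels number the 48 h cultures 1, 2 and 3, and those of both earlier times 1, 2 and 5. Strain, age, sex and culture conditions were not given in the sources used here.

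A ribosome consists of a small subunit, which reads the mRNA, and a large subunit, which joins amino acids into protein. Each protein is needed in about one copy per ribosome, and the genes are usually transcribed and translated as a group. Their mRNAs typically begin with a cytosine followed by a run of pyrimidines, the terminal oligopyrimidine (TOP) motif, through which the kinase complex mTORC1 and the binding protein LARP1 set their translation. In sensory neurons, ribosomal protein mRNAs are found in the axon as well as in the cell body, and growing axons make protein locally.

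The start sequences of the members that the results turn on are shown first, because the TOP motif is the best known sequence shared by this family. Each window runs from 15 bases before to 15 bases from the annotated RefSeq transcription start on, in build GRCm38.p6, 5′ to 3′ on the gene's strand, and capitals mark its longest run of pyrimidines. The first 5 are the members that rose between 12 and 48 h in both genotypes, Rpl5 is a member that fell in WT, and Rpl7a and Rpl15 show long runs.
Rpl35 (chr2:39005117-39005146, minus strand): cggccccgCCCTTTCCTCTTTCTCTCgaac
Rplp0 (chr5:115559452-115559481, plus strand): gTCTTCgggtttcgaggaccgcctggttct
Rps2 (chr17:24720048-24720077, plus strand): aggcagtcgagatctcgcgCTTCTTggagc
Rps3 (chr7:99483695-99483724, minus strand): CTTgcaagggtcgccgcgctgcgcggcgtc
Rpsa (chr9:120127751-120127780, plus strand): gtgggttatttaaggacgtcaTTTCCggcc
Rpl5 (chr5:107900513-107900542, plus strand): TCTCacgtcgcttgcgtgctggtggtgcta
Rpl7a (chr2:26910792-26910821, plus strand): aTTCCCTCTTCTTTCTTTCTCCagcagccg
Rpl15 (chr14:18270972-18271001, minus strand): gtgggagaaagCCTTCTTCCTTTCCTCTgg
The run was 18 bases long in Rpl35 and 21 in Rpl7a, but 5 in Rplp0, 3 in Rps3 and 4 in Rpl5. Members called in the same direction therefore differed in this feature at the annotated RefSeq start, which may lie away from the start used in these cells. For Rps2, Rpl35 and Rpl15 the window lies well inside the gene as GENCODE M21 bounds it, not at its 5′ end. Those bounds are chr17:24718116-24721929, chr2:39001580-39005624 and chr14:18267823-18271391.

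Over the 71 windows of the 59 members in the RefSeq table, 27 (38%) held a run of at least 8 pyrimidines. The same held for 3943 (12%) of the 32851 windows of all genes, and the median longest run was 6 bases in the members and 4 over all windows. In the 300 bases from 250 before the start, the letters CCGGAAG, searched on both strands, stood in 35.2% of member windows and 8.9% of all windows, and CTCTTTC, which can lie within a pyrimidine run, in 28.2% and 8.2%. Of the 49 members with a single listed start outside chromosome 18, 21 held a run of at least 8. The median change of all 21 in WT between 12 and 48 h was 0.37 on the log2 scale, and 12 of them rose. Among the other 28, 15 rose and the median change of all 28 was 0.44, and the difference was not tested. Of all genes tested, 30.0% rose in this comparison.

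Values are the authors' normalized counts, a unit scaled to almost the same total in every culture, from 41509705 to 41509874, so the read depth behind them is unknown. Changes were tested with limma on log2(normalized count + 1) over all 17198 genes, with p-values adjusted by Benjamini-Hochberg within each comparison and a threshold of 0.05, and "rose" and "fell" are used only of genes past it. Dynlrb1 itself averaged 6195 ± 758, 5786 ± 603 and 6015 ± 348 normalized counts (SD, n = 3) in WT at 12, 24 and 48 h, and 3599 ± 426, 3204 ± 557 and 3346 ± 123 in HET, so every HET group lay below every WT group. The labelled cell type was checked by its markers: all 14 listed for sensory neurons were measured, and the lowest group mean among them was 2488 for Isl1. One culture, HET 48 h replicate 3, stood apart from its group in the members, and results that rest on it are given with and without it.

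Together the members made up little of the deposited signal. Their summed share of the normalized total was 0.442 ± 0.0297% (SD, n = 3) in WT at 12 h, 0.466 ± 0.0518% at 24 h and 0.598 ± 0.0145% at 48 h. In HET the shares were 0.462 ± 0.0337%, 0.512 ± 0.0673% and 0.557 ± 0.0615%. All 3 WT cultures at 48 h, from 0.582 to 0.609%, lay above every WT culture at 12 and 24 h, whereas the HET groups overlapped from one time to the next.

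Levels per transcript length, in the authors' FPKM (fragments per kilobase, scaled to the library), spread widely among genes whose proteins are needed in similar amounts. The highest means over the 18 cultures were 470 for Rplp1, an acidic protein of the stalk that recruits elongation factors, 401 for Rpl4, which lines the exit tunnel, and 391 for Rpl41, the smallest ribosomal protein. Among the 73 members with a mean normalized count of at least 100, the lowest were 4.45 for Rps27a, a ubiquitin fusion, 4.81 for Rpl17 and 4.82 for Rpl23a. The 7 members below that count included Rpl26 at 2.12 FPKM and Rpl3l, a paralog known mainly from muscle, at 0.182 FPKM. Rplp0, the stalk's base, averaged 219 FPKM and Rplp2, the other acidic stalk protein, 54.1 FPKM, so the 3 stalk genes differed severalfold in level.

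The level of a member moved with how much of its coding sequence also occurs elsewhere in the transcriptome. Ribosomal protein genes have many processed pseudogenes, and a read from a shared stretch can be assigned to several places; how the authors counted such reads is not given in the sources used here. Each member's longest coding sequence was split into overlapping stretches of 50 bases and compared with transcripts of other genes in GENCODE M21 (GRCm38). Of the 79 members with a protein-coding transcript, 28 shared every stretch with another annotated gene, and the median shared part was 90.3%. The 13 members with under 50% shared had a median of 259 FPKM, from 0.182 for Rpl3l to 401 for Rpl4, and the 66 others a median of 20.0 FPKM. The 28 fully shared members had a median of 8.28 FPKM, from 2.92 to 83.2. Spearman's rho of mean FPKM with the shared part was -0.65 across the 79 genes, given as a description since all come from the same libraries. Levels of single members, and their low sum, are therefore uncertain, and the part of shared sequence in them was not tested.

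**Figure D1:**
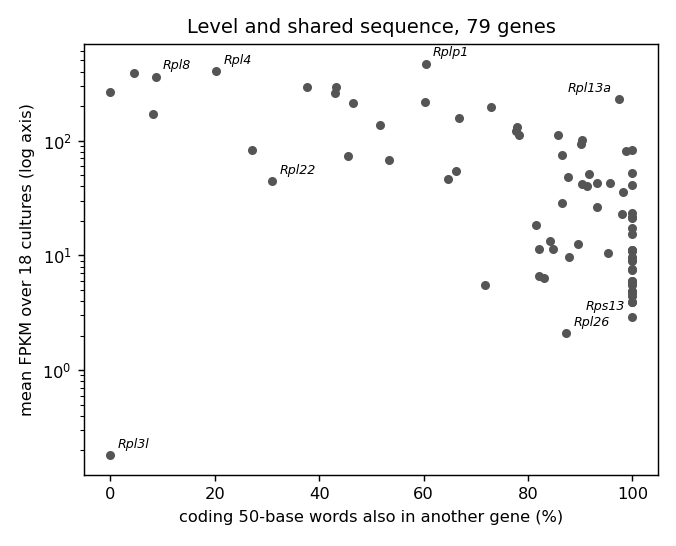
Mean FPKM over 18 cultures (log axis) of 79 ribosomal protein genes against the percent of 50-base stretches of their coding sequence that also occur in transcripts of another gene; each point is a gene. The 28 fully shared genes reach at most 83.2 FPKM, while most genes with under 50% shared lie above 100 FPKM.

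As a group, the members were highest in WT cultures at 48 h. Each gene's log2 level was set against its own mean over the 18 cultures, and the median over the 80 members was taken in each culture. In WT this median was -0.06, -0.14 and -0.25 at 12 h, -0.10, -0.25 and 0.05 at 24 h, and 0.23, 0.25 and 0.22 at 48 h. All 3 WT cultures at 48 h lay above the 6 earlier ones, and they differed from each other by less than any other group did. In HET the values were -0.20, -0.10 and -0.02 at 12 h, -0.17, 0.05 and 0.16 at 24 h, and 0.19, 0.24 and -0.05 at 48 h. HET replicates 1 and 2 at 48 h were close to the WT cultures of that time, and replicate 3 lay within the range of the earlier HET cultures.

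**Figure D2:**
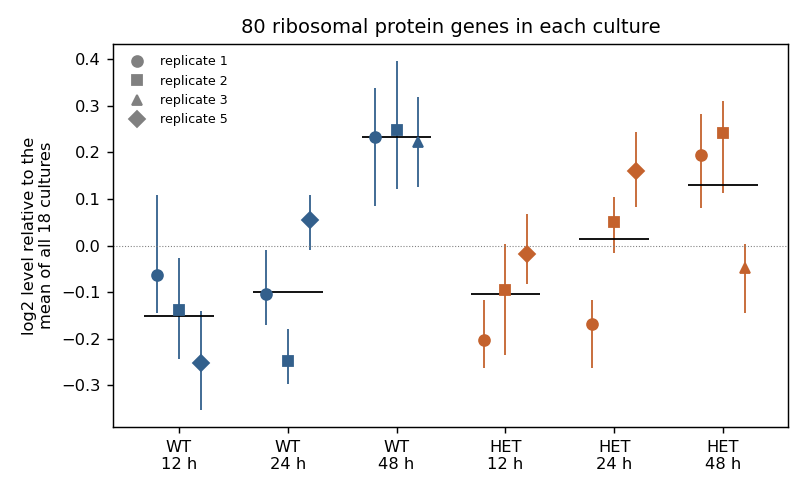
Median log2 level of the 80 members relative to each gene's mean over all 18 cultures (vertical axis), for each culture by genotype and time; bars span the lower to the upper quartile of the members, horizontal lines are group means. The 3 WT cultures at 48 h sit between 0.22 and 0.25, and HET 48 h replicate 3 sits at -0.05.

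Members followed this common level to different degrees. Pearson's r of a gene with the member median over the 18 cultures was at least 0.9 for 29 members and at least 0.8 for 47, with a median of 0.83, as a description over libraries that the genes share. Rpl8, at 0.98, was among those that followed it most closely. The r was below 0 for 6 members: Rpl10a (-0.53), Rpl5 (-0.38), Rps12 (-0.23), Rps4l (-0.23), Rpl12 (-0.18) and Rpl17 (-0.16).

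Between 12 and 48 h in WT cultures, 43 of the 80 members rose and 2 fell. Of all genes tested, 30.0% rose and 17.1% fell, against 53.75% and 2.5% of the members. The median change of the members was 0.39 on the log2 scale, 1.31-fold, beside 0.11 over all genes. Both subunits took part, with 24 of 48 large-subunit genes and 19 of 32 small-subunit genes higher and medians of 0.36 and 0.41. The calls differed with shared coding sequence: 11 of the 13 members with under 50% shared rose, with a median of 0.47. Of the 66 others 32 rose, with a median of 0.37. These 66 include the 28 fully shared members, of which 8 rose, with a median of 0.3. The part of shared sequence in these calls was not tested. The scale of the comparison matters here: with each culture centred on its median gene, 20 members rose and 5 fell, beside 18.6% and 26.7% of all genes, and the member median was 0.18 beside -0.10 over all genes. The authors' deposited table called 41 members higher and 1 lower, beside 28.1% and 17.2% of all genes.

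**Figure D3:**
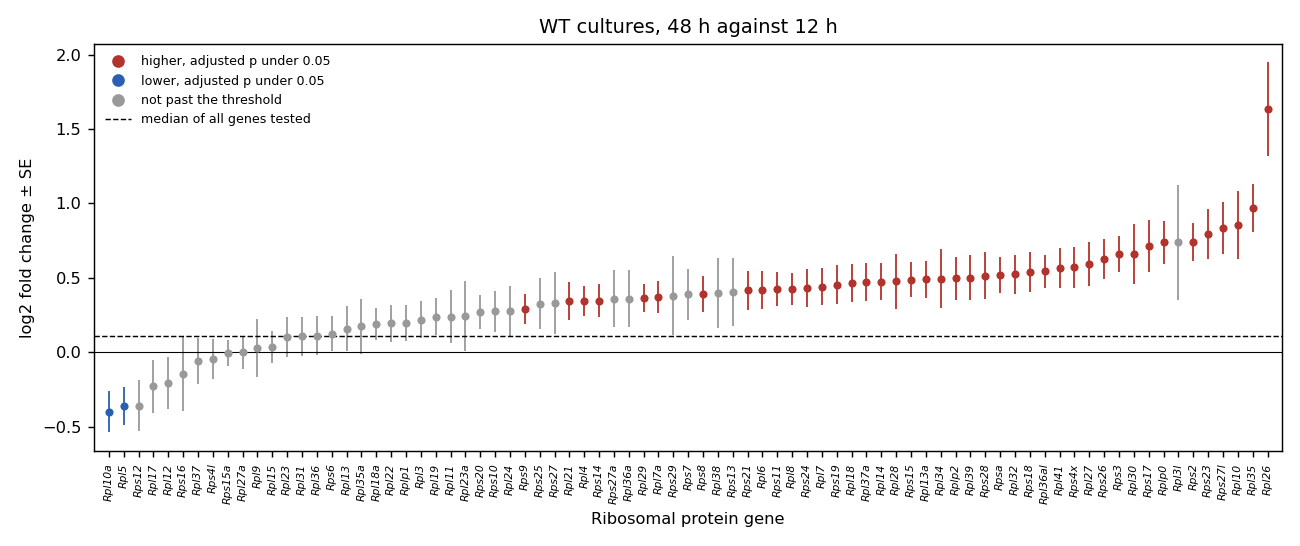
Log2 fold change ± SE of 79 of the 80 members in WT cultures, 48 h against 12 h (3 cultures each), in order of size; colours mark genes past an adjusted p of 0.05 in limma and the dashed line is the median of all genes. The changes run from -0.40 for Rpl10a to 1.63 for Rpl26.

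Rpl35, a large-subunit protein at the mouth of the exit tunnel, had the largest change among members with a mean of at least 100 normalized counts. The gene lies at chr2:39001580-39005624 on the minus strand, and its start window carries the 18-base pyrimidine run shown above. It stood at 725, 786 and 579 normalized counts in WT at 12 h, 887, 715 and 1011 at 24 h, and 1311, 1566 and 1207 at 48 h. Every WT culture at 48 h lay above every earlier WT culture. The change from 12 to 48 h was 0.97 ± 0.16 (SE) on the log2 scale, with an adjusted p of 0.000214 in limma. HET cultures gave 648, 656 and 706 at 12 h, 820, 893 and 1177 at 24 h, and 1302, 1207 and 1001 at 48 h, with no overlap between 12 and 48 h and a change of 0.80 ± 0.16 (limma adjusted p = 0.0129).

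Rplp0 (chr5:115559467-115563727, plus strand), which anchors the stalk, stood at 11158, 10324 and 8922 normalized counts in WT at 12 h and at 17014, 18637 and 15048 at 48 h. The groups did not overlap, and the change was 0.74 ± 0.14 (SE, log2; limma adjusted p = 0.000591). In HET, Rplp0 went from 9245, 9234 and 10769 to 14684, 15114 and 10498, so that replicate 3 at 48 h overlapped the 12 h cultures, and the change was 0.45 ± 0.14 (limma adjusted p = 0.0455). Of the other stalk genes, Rplp2 rose in WT by 0.50 on the log2 scale, and Rplp1, the member with the highest FPKM, changed by 0.19 and did not pass the test.

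The small-subunit genes Rps2 and Rps3 encode proteins at the entry of the mRNA channel. Rps2 (chr17:24718116-24721929, plus strand) stood at 4508, 4355 and 4169 normalized counts in WT at 12 h and at 7256, 7594 and 6930 at 48 h, a change of 0.74 ± 0.13 (SE, log2). Rps3 (chr7:99477896-99483738, minus strand) shares only 8.1% of its coding stretches with other genes; it stood at 11193, 10782 and 9972 in WT at 12 h and at 16134, 17892 and 16479 at 48 h, a change of 0.66 ± 0.12. Both sets of groups were apart. In HET the log2 changes were 0.40 ± 0.13 for Rps2 and 0.39 ± 0.12 for Rps3, each past the threshold, and for Rps2 the value of 4712 in replicate 3 at 48 h lay within the 12 h range of 4245 to 5100. Rpsa, the laminin receptor and small-subunit protein, changed by 0.52 ± 0.12 in WT and 0.38 ± 0.12 in HET, and rose in both.

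Rps27l, a paralog of Rps27 known as a p53 target, was among the 3 largest changes in WT of members with a mean of at least 100 normalized counts. It stood at 1129, 1390 and 1083 normalized counts at 12 h, 1458, 1434 and 2002 at 24 h, and 1994, 2480 and 1945 at 48 h, a log2 change of 0.83 ± 0.17 (SE) from 12 to 48 h (limma adjusted p = 0.00111). Rpl10, which joins the large subunit late in its assembly, went from 292, 254 and 286 to 387, 573 and 566, a change of 0.85 ± 0.23 (limma adjusted p = 0.00575). The largest fitted change was that of Rpl26, a low gene at 38.5, 28.8 and 16.4 normalized counts at 12 h and 100.7, 86.9 and 67.5 at 48 h, which rose by 1.63 ± 0.31 on the log2 scale.

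Rpl5 and Rpl10a went the other way. Rpl5 (chr5:107900502-107909005, plus strand) carries the 5S rRNA into the large subunit and can bind Mdm2, and all its coding stretches also occur in other genes. It stood at 776, 874 and 784 normalized counts in WT at 12 h and at 643, 535 and 729 at 48 h. The groups did not overlap, and Rpl5 fell by 0.36 ± 0.13 (SE) on the log2 scale (limma adjusted p = 0.0312). Rpl10a (chr17:28328471-28331033, plus strand), a protein of the L1 stalk that is likewise fully shared in sequence, stood at 653, 569 and 498 at 12 h and at 367, 417 and 523 at 48 h, and the groups overlapped through replicates 5 and 3. It fell by 0.40 ± 0.14 (limma adjusted p = 0.0241). Rps12, in the beak of the small subunit, changed by -0.36 ± 0.17 and did not pass (limma adjusted p = 0.0907).

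**Figure D4:**
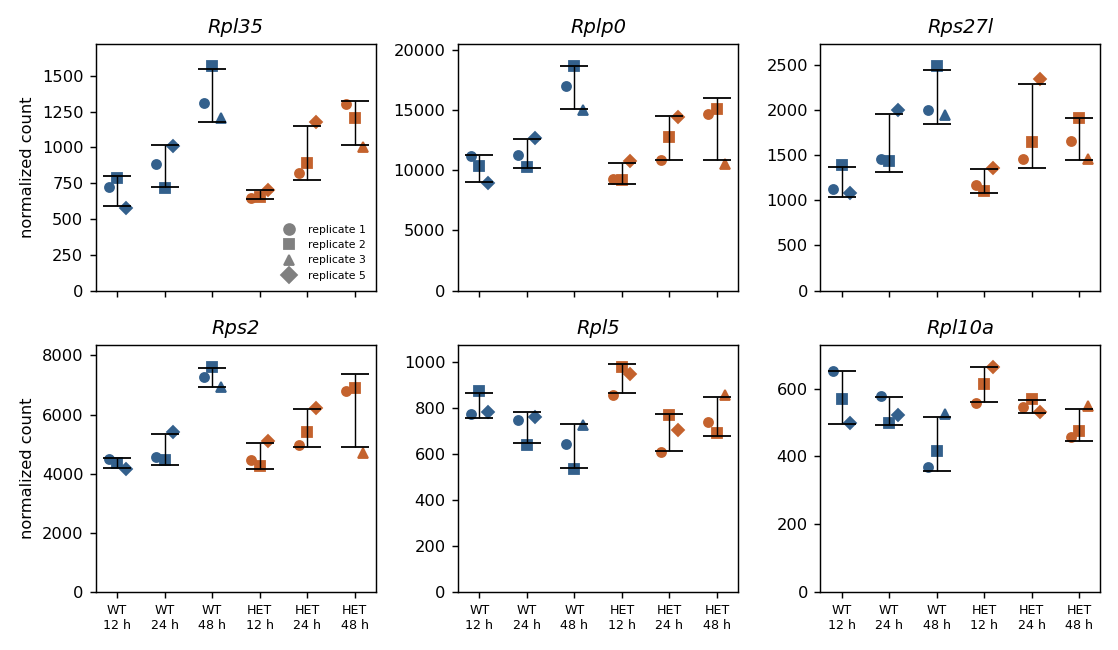
Normalized counts of 6 members in every culture by genotype and time (points, shaped by replicate number), with group mean ± SD (bars, n = 3); each vertical axis starts at 0. Rpl35, Rplp0, Rps27l and Rps2 have their highest group mean in WT at 48 h, whereas the means of Rpl5 and Rpl10a in WT are lower at 48 h than at 12 h.

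In WT the member median changed less from 12 to 24 h than from 24 to 48 h. From 12 to 24 h no member passed the threshold in limma, 1 had an unadjusted p under 0.05, and 3.62% of all genes passed; the member median was 0.05, as over all genes. The authors' deposited table also called 0 members in that comparison. From 24 to 48 h 35 members rose and 0 fell, beside 17.4% and 10.3% of all genes, with a median of 0.35 against 0.05 over all genes. Both comparisons to 48 h use the same 3 cultures. This count depended on single cultures: it was 2 without WT 24 h replicate 2, 8 without WT 48 h replicate 2, 15 without WT 48 h replicate 1 and 17 without WT 24 h replicate 1, where 7.58%, 8.16%, 11.6% and 12.3% of all genes rose. The median stayed between 0.28 and 0.41 over the 18 cultures left out in turn.

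In HET cultures 5 members rose between 12 and 48 h (Rpl35, Rplp0, Rps2, Rps3 and Rpsa) and 0 fell, beside 10.6% and 3.62% of all genes. All 5 were among the 43 that rose in WT, which makes 100% of the HET list and 11.6% of the WT list. The same overlap over all genes was not counted, so this overlap is no result about the members. The median change was 0.25, beside 0.10 over all genes. The authors' deposited table called 8 members higher, these 5 with Rpl41, Rps24 and Rps26, and 0 lower, beside 11.2% and 4.22% of all genes. Replicate 3 at 48 h weighed on the count of 5: without it 25 members rose and 0 fell, beside 19.8% and 8.61% of all genes, and the median was 0.31 beside 0.12 over all genes. The count was 0 without HET 12 h replicate 2, HET 48 h replicate 1 or HET 48 h replicate 2, fits in which 0% of all genes passed. It was 1 without WT 12 h replicate 2, WT 24 h replicate 1, WT 48 h replicate 1, HET 12 h replicate 1 or HET 24 h replicate 2. In these fits 9.29%, 8.57%, 9.42%, 4.86% and 9.47% of all genes rose. The count was 3 without WT 48 h replicate 2 or 3, where 10.3% of all genes rose. Rpl5 and Rpl10a changed by -0.28 and -0.31 in HET, the direction of WT, and neither passed the threshold.

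From 12 to 24 h in HET, Rps27l and Rpl35 rose by 0.56 and 0.51 on the log2 scale and Rpl5 fell by 0.42, beside 13.1% of all genes higher and 5.76% lower. These 3 calls rested on single cultures, since 0 members passed without HET 12 h replicate 2 or HET 24 h replicate 5, and 1 passed without HET 12 h replicate 1 or 5. From 24 to 48 h no member passed in limma, 5 had an unadjusted p under 0.05 and 2.49% of all genes passed. The largest change there was 0.58 ± 0.19 (SE, log2) for Rpl36a, with a limma adjusted p of 0.103. Without HET 48 h replicate 3, 4 members rose, beside 8.30% of all genes.

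**Figure D5:**
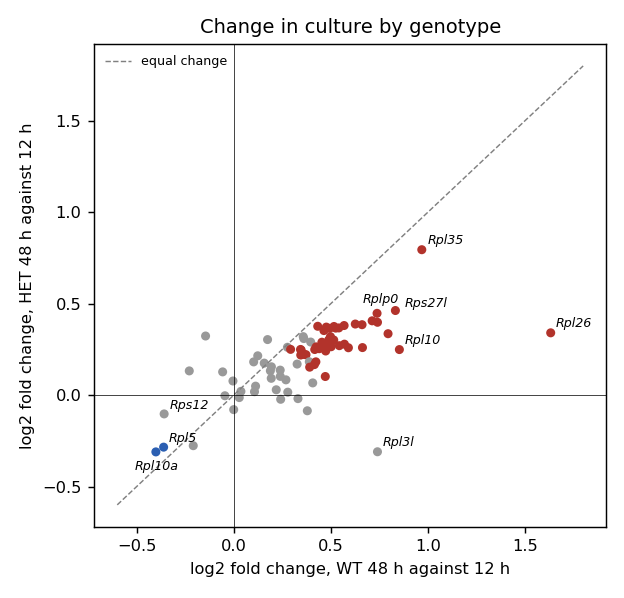
Log2 fold change from 12 to 48 h of the 80 members in WT (horizontal) and HET (vertical); red points rose and blue points fell in WT in limma, grey points did not pass, and the dashed line marks equal change. Rpl35 is the highest in HET at 0.80, and 68 of the 80 points lie below the line.

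Whether the change in culture differed between the genotypes was tested directly. The difference of the 48 against 12 h changes, HET minus WT, had a median of -0.16 over the members and -0.01 over all genes, and was negative in 68 of the 80. No member passed the threshold in limma, 1 had an unadjusted p under 0.05, and 0% of all genes passed. The lowest adjusted p in limma was 0.548, for Rpl26, with a difference of -1.29 ± 0.44 (SE, log2). Without HET 48 h replicate 3 the member median was -0.07.

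Between genotypes at a fixed time no member passed the threshold. At 12 h the median difference, HET minus WT, was 0.05, beside -0.02 over all genes; 1 member had an unadjusted p under 0.05 and 0.00581% of all genes passed. Among members with a mean of at least 100 normalized counts the differences ran from -0.32 for Rpl35a to 0.26 for Rpl31. At 24 h the median was 0.11, beside 0.01 over all genes, 0 members had an unadjusted p under 0.05 and 0.00581% of all genes passed; among members with a mean of at least 100 they ran from -0.31 for Rpl28 to 0.37 for Rpl30. Averaged over the 3 times the median was 0.02, 5 members had an unadjusted p under 0.05 and 0.0174% of all genes passed. The authors' deposited table called 0 members at each of the 3 times; at 48 h it called 2.70% of all genes higher in HET and 3.27% lower.

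At 48 h the members leaned lower in HET without any passing in limma. The median difference was -0.12, beside -0.03 over all genes, 62 of 80 were negative, 7 had an unadjusted p under 0.05, and 0% of all genes passed. Rps23, which sits at the decoding centre, stood at 175, 201 and 209 normalized counts in WT and at 160, 135 and 131 in HET, with no overlap and a log2 difference of -0.46 ± 0.17 (SE; limma adjusted p = 0.130). Rpl10 differed by -0.57 ± 0.23 and Rpl30 by -0.51 ± 0.20, the lowest among members with a mean of at least 100 normalized counts. The low gene Rpl26 had the most negative difference of all members, -0.85. Rps12 had the largest positive difference, at 186, 187 and 206 in WT and 220, 253 and 299 in HET, a difference of 0.40 ± 0.17 (limma adjusted p = 0.178). With the replicate number as a block, which was taken to pair the cultures at this time, 5.04% of all genes were higher in HET and 7.29% lower in limma, and still 0 members passed in either direction. The median was -0.01 without HET 48 h replicate 3, and -0.18 at the other end of the 18 cultures left out in turn.

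Minor paralogs were set beside their main genes per length. On the log2 FPKM scale Rps27l lay above Rps27 by 3.68 ± 0.44 (SD, n = 3) in WT at 12 h and by 4.18 ± 0.25 at 48 h, and Rpl36al lay above Rpl36a by 3.07 ± 0.26 and 3.25 ± 0.15. Rps27 itself was low, from 60.5 to 106 normalized counts over the cultures. All coding stretches of Rps27 also occur in other genes, against 27.1% of those of Rps27l. Rpl36a and Rpl36al were both fully shared. The level differences within pairs are therefore as uncertain as the levels of single members. Rps4l, which GENCODE M21 annotates as a transcribed processed pseudogene, lay below Rps4x by a difference of -1.09 ± 0.18 at 12 h and -1.71 ± 0.14 at 48 h. Rps4x rose in WT by 0.57 on the log2 scale and Rps4l changed by -0.05. Rpl3l lay far below Rpl3, at -8.31 ± 0.76 and -7.70 ± 0.73, and neither gene passed the test in WT.

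The other lists of the translation machinery are set beside the 30.0% of all genes that rose in WT between 12 and 48 h, the 17.1% that fell and the median of 0.11 over all genes. Of 6 measured ribosomal proteins whose symbols fall outside the rule, 3 rose in WT between 12 and 48 h, among them the scaffold Gnb2l1 by 0.67 on the log2 scale and Rpl7l1 by 0.51. Among 9 elongation factors 4 rose and 1 fell; Eef1b2, which reloads eEF1A with GTP, rose by 0.97 and Eef1a2, the eEF1A form of neurons and muscle, fell by 0.34. Of 35 initiation factors 13 rose and 5 fell, with a median of 0.12, near the values of all genes: Eif2b1, of the exchange factor for eIF2, rose by 0.57, and Eif1, which guides start codon choice, fell by 1.16. Mitochondrial ribosomal proteins, a separate family that serves the mitochondrial ribosome, had 58 of 77 higher and 0 lower, with a median of 0.45 and Mrpl18 at 1.03. With each culture centred on its median gene 31 passed, in a fit where 18.6% of all genes rose and 26.7% fell.

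Of 45 measured ribosome biogenesis genes 13 rose in WT, with a median of 0.12, both near the values of all genes, and 0 fell. Rrp12 rose by 0.78 and Bms1, a GTPase of small-subunit assembly, by 0.69. Of 12 genes for RNA polymerase I and its factors 6 rose, with a median of 0.25. With each culture centred on its median gene 1 passed, beside 18.6% of all genes higher and 26.7% lower in that fit. Other TOP mRNAs and snoRNA host RNAs gave 1 higher and 4 lower of 11, with a median of -0.24: Snhg1, Snhg12, Hnrnpa1 and Nap1l1 fell by 0.91, 0.84, 0.53 and 0.39. In the list for mTORC1 and TOP regulators 3 of 17 rose and 5 fell. Mycn rose by 1.85, whereas the mTOR inhibitor Deptor fell by 1.27, Myc by 1.20 and Larp1, the TOP mRNA binding protein, by 0.57. Between the genotypes at 48 h no gene of these 8 lists passed in limma without the block. With it, beside the 5.04% of all genes higher in HET and 7.29% lower, 6 mitochondrial ribosomal protein genes, 4 of biogenesis, 2 of RNA polymerase I and 1 elongation factor were lower, and 2 mTORC1 and TOP regulators and 1 other TOP or host RNA were higher.

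Marker sums of other cells also differed between 12 and 48 h. Summed normalized counts of the 6 cell cycle genes lay between 419 and 452 in WT at 12 h and 2174 to 4826 at 48 h, and 6 of 6 rose; in HET they were 277 to 543 and then 3066, 2003 and 536 in replicates 1, 2 and 3. The 6 fibroblast markers summed to 4878 to 11608 in WT at 12 h and 17195 to 27597 at 48 h, and 4 rose. In HET they were 5525 to 9083 at 12 h and 12670 to 26305 at 48 h, lowest in replicate 3. Sensory neuron markers summed to 656997 to 790295 in WT at 12 h and 588167 to 636793 at 48 h, and 8 of 14 fell while 3 rose. The 5 satellite glia markers summed to 28924 to 38786 in WT at 12 h and 20924 to 23368 at 48 h. Of these markers 3 fell and 1 rose, Glul, by 0.59 on the log2 scale. The 5 measured neutrophil and red cell markers summed to 239 to 6149 and then 76.9 to 125, and all 5 fell. In HET at 48 h the last sum was 119, 179 and 1837, highest in replicate 3. No marker list had a group mean of 0. The part of these shifts in the values of the ribosomal protein genes was not tested, and in bulk cultures fewer cells of a type and less RNA per cell cannot be told apart.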

How the data were processed

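RNA from 18 cultures was analysed from 1 table. The authors' deposited normalized counts are a signal per gene, not raw counts; the per-sample columns without a header label are also a deposited signal, and the FPKM values, log2 fold changes and log2 ratios, p-values and rank score are the authors' too, per the file headers. The submitters' processing notes name CASAVA 1.8.2, edgeR and mm10 without roles; aligner, counter and annotation are not given in the sources used here. No raw depth was available, so precision rests on replicates. limma 3.58.1 (R 4.3.3; lmFit, eBayes with trend) was fitted to log2(normalized count + 1) for all 17198 genes with a mean of at least 1, with 1 coefficient per group and 12 residual degrees of freedom; 11 comparisons were made. Fold changes on this scale understate the change of low genes. The script was tested on simulated data. Alternatives were the unlabelled columns, other pseudocounts and filters, other scalings, a replicate block, and each culture left out. At 48 h, same-numbered WT and HET cultures deviated together (r from 0.21 to 0.46 over all genes, 3 pairs), and the numbers were taken to pair them. The labels state no pairing, so it was inferred from these same data, and unlike-numbered cultures at 48 h ran from -0.47 to 0.18. Elsewhere same-numbered r ran from -0.21 to 0.36 and these cultures were not taken as pairs. All same-numbered r were positive for HET against WT at 12 h (0.03 to 0.19) and HET 24 against 12 h (0.03 to 0.36). The log2 values of the unlabelled columns span 15 of 17 possible dimensions, so 2 directions among cultures had been removed before deposit, and p-values may be too small. Named members are the stalk genes, Rpsa, minor paralogs, the 3 highest and 3 lowest of each comparison among members with a mean of at least 100, the extremes of FPKM, and calls of 5 or fewer; Rpl26, Rpl8, Rpl7a, Rpl15, Rps24 and Rps26 fall outside this rule and were chosen after their values were seen. Values of some single genes are not reported here. The members and lists were chosen with earlier results of these data known.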

Additional observations from a re-analysis of the deposited data

How the results depend on the processing

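No called member changed direction. Of the alternative values for counts and medians of the members, 594 stayed within 1.5 times the count or 1 SD of the median and 44 did not. That SD, 0.124, is the pooled spread of the culture medians within groups and is larger than every HET against WT median. Counts that stayed at 0 were taken as unchanged. Leaving out a culture outside a comparison cannot move its median. The 594 therefore cannot show that the HET against WT medians are stable. Centring each culture on its median gene gave 25 members for WT 48 against 12 h (median 0.18), 19 for WT 48 against 24 h (16 higher, 3 lower; median 0.19), 2 for HET 48 against 12 h (median 0.076) and a median of -0.015 for HET 24 against 12 h. Under this centring 18.6% of all genes rose and 26.7% fell for WT 48 against 12 h. The shares were 9.97% and 16.9% for WT 48 against 24 h, and 4.16% and 6.84% for HET 48 against 12 h. For HET 48 against 12 h the count of 5 became 1 with the unlabelled columns, 2 with quantile normalization, 0 with only the groups compared, 1 without the mean-variance trend and 2 with the removed directions as covariates. Of all genes, 5.81% rose and 5.38% fell with the unlabelled columns, and 4.96% and 4.32% with quantile normalization. The shares were 0% and 0% with only the groups compared, and 8.57% and 2.45% without the trend. With the removed directions as covariates the shares are not given here. HET 24 against 12 h gave 1 without the trend, beside 12.2% of all genes higher and 4.98% lower. Leaving out each culture gave 2 to 40 for WT 48 against 24 h, 0 to 4 for HET 24 against 12 h, 0 to 25 for HET 48 against 12 h and 0 to 4 for HET 48 against 24 h. The shares of all genes called moved in these fits as well. With the replicate block, where numbers were taken to pair cultures only at 48 h, 6 members passed for HET 24 against 12 h (5 higher, 1 lower). Of all genes 17.3% rose and 8.88% fell there. For HET 48 against 12 h 35 rose (median 0.38), beside 21.3% of all genes higher and 9.49% lower. For HET 48 against 24 h 13 rose (median 0.27), beside 9.76% and 7.03%. Only 2 numbers are shared between 12 and 48 h, so replicate 3 carries no information on that change under the block. Replicate 5, present at 12 and 24 h, adds to it only indirectly. The block with the removed directions, added after seeing the data, gave 3 members for HET against WT at 48 h (1 higher, 2 lower), 1 for WT 48 against 24 h, 10 for HET 24 against 12 h, 22 for HET 48 against 12 h and 3 for HET 48 against 24 h (median 0.24). The shares of all genes called in that fit are not given here, so these counts are no result about the members. The cause of these shifts was not tested beyond what is stated. Read depth is unknown, so limits from counting cannot be given.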
